A study of Homo sapiens with 6 samples.

Results

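The neuronal and glial differentiation genes are 50 genes chosen by symbol from 10 roles in nerve cells and glia, and 49 of them had a row in the gene count table of 22604 genes. Of these 49, 32 passed the filter on low counts and were tested among 13501 genes, and 17 were removed by it. MAPT was not analysed here. The rule names the genes by symbol, and the list was drawn up with earlier results of these data known.

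The cells were SKNMC, a Ewing sarcoma cell line that carries the EWS-FLI1 fusion, grown in RPMI-1640 with fetal bovine serum. They were infected to express V5-tagged full-length NFIB (NFIB WT), V5-tagged NFIB that lacks its C-terminal intrinsically disordered region (NFIB ΔIDR), or an empty vector (EV), with 2 libraries of each group. The NFIB coding sequence came from a small-cell lung cancer line, and the deletion was made in it by site-directed mutagenesis. All 3 groups share the fusion and the cells' own NFIB gene, and the results hold for a single cell line. Sequencing libraries were prepared from total RNA by the CORALL method, and the question was which RNAs change with NFIB and whether the change needs its disordered region.

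Neurons are recognised by cytoskeletal proteins of axons and dendrites, by the machinery that fuses vesicles at synapses and by RNA-binding proteins of the ELAVL family, whereas glia express intermediate filament and calcium-binding proteins of their own. Ewing sarcoma cells are known for a partial neural phenotype, and transcription factors of the NFI family, to which NFIB belongs, promote the formation of glia in the developing mouse nervous system. REST is a repressor that keeps many neuronal genes silent outside neurons.

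Library totals ranged from 6664231 to 8465572 counts, so that 3 counts, taken as the limit for a gene at 0, correspond to 0.358 to 0.450 CPM (a gene's counts relative to the TMM-scaled size of the library). NFIB checked the labels of the construct libraries against EV only, since counts per gene do not show which construct carries the deletion. NFIB RNA had 969 and 1051 CPM in NFIB WT cells, 2227 and 2332 CPM in NFIB ΔIDR cells and 176 and 145 CPM in EV cells. NFIB RNA was thus also lower in NFIB WT cells than in NFIB ΔIDR cells (log2 fold change -1.17, adjusted p = 0.000191, edgeR's quasi-likelihood test with Benjamini-Hochberg adjustment), so the form of NFIB and its amount cannot be told apart when both constructs are compared. The 10 measured Ewing sarcoma markers all had at least 1 CPM in every group. They summed to 3058 to 3076 CPM in NFIB WT cells, 2657 to 2712 CPM in NFIB ΔIDR cells and 2806 to 2811 CPM with EV. CCND1 had the most CPM of them, with means of 1580, 1182 and 1257 CPM in that order of groups. The median log2 fold change of the 10 markers was -0.076 with NFIB WT against EV. In that comparison 1 of them was called by the same test, LIPI, which was higher (log2 fold change 0.62, adjusted p = 0.0376). The 10 fibroblast markers summed to 623 to 636, 439 to 446 and 478 to 491 CPM in the same order of groups. With NFIB WT against EV, 2 of the 9 tested were higher and 0 lower, beside 0.452% and 0.163% of all genes. They were DCN (log2 fold change 0.74, adjusted p = 0.00608) and FAP (0.69, adjusted p = 0.0253). The 7 measured epithelial markers, of which KRT18 had most of the CPM, summed to 188 to 267 CPM in NFIB WT cells, 304 to 349 CPM in NFIB ΔIDR cells and 215 to 250 CPM with EV. Among them ESRP1, an epithelial splicing factor, rose with NFIB ΔIDR against EV (log2 fold change 1.37, adjusted p = 0.0376). The 6 melanocyte markers summed to 12.9 to 13.2, 17.6 to 20.7 and 12.3 to 14.1 CPM in the same order of groups, and the 7 immune markers, nearly all PTPRC, to 255 to 279, 288 to 318 and 262 CPM. The 5 endothelial markers stayed at or below 3.45 CPM and the 4 measured skeletal muscle markers at or below 0.590 CPM in sum. The part of these shifts in the results was not tested. The paper describes the 2 libraries of a group as biological duplicates, and p-values measure only the spread between them. The library of NFIB WT replicate 1 stood apart from its partner. Over all genes tested, the SD of the log2 difference within a pair was 0.38 (NFIB WT), 0.28 (NFIB ΔIDR) and 0.28 (EV). A chi-square per degree of freedom, which relates the differences within a pair to counting error, was 9.04, 1.62 and 1.83 in the same order. The main fit pooled the spread over the groups, so that of NFIB WT also enters the test of NFIB ΔIDR against EV. Fewer cells expressing a gene and less RNA per cell cannot be told apart in these bulk libraries.

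The neural genes of SKNMC cells spanned from among the most abundant RNAs to RNAs not detected at this depth. With EV, 17 of the 49 genes averaged at least 10 CPM and 4 of them at least 100 CPM, and over all groups 34 reached a mean of 1 CPM in at least 1 group. Since long genes collect more reads, levels are compared between genes only as CPM per kb of gene length. UCHL1, a neuronal ubiquitin hydrolase, was the highest member at 196 CPM per kb with EV, above 98.3% of the genes tested. SOX2, a factor of neural progenitors, followed at 57.0 CPM per kb, above 90.7% of genes. NCAM2, a neural adhesion molecule, and MAP1B, a microtubule-associated protein of growing axons, came next at 25.1 and 22.9 CPM per kb, and the plot of levels per kb shows all 49 genes. The 32 tested members had a median of 3.08 CPM per kb with EV, against 7.61 CPM per kb over all genes tested.

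**Figure D1:**
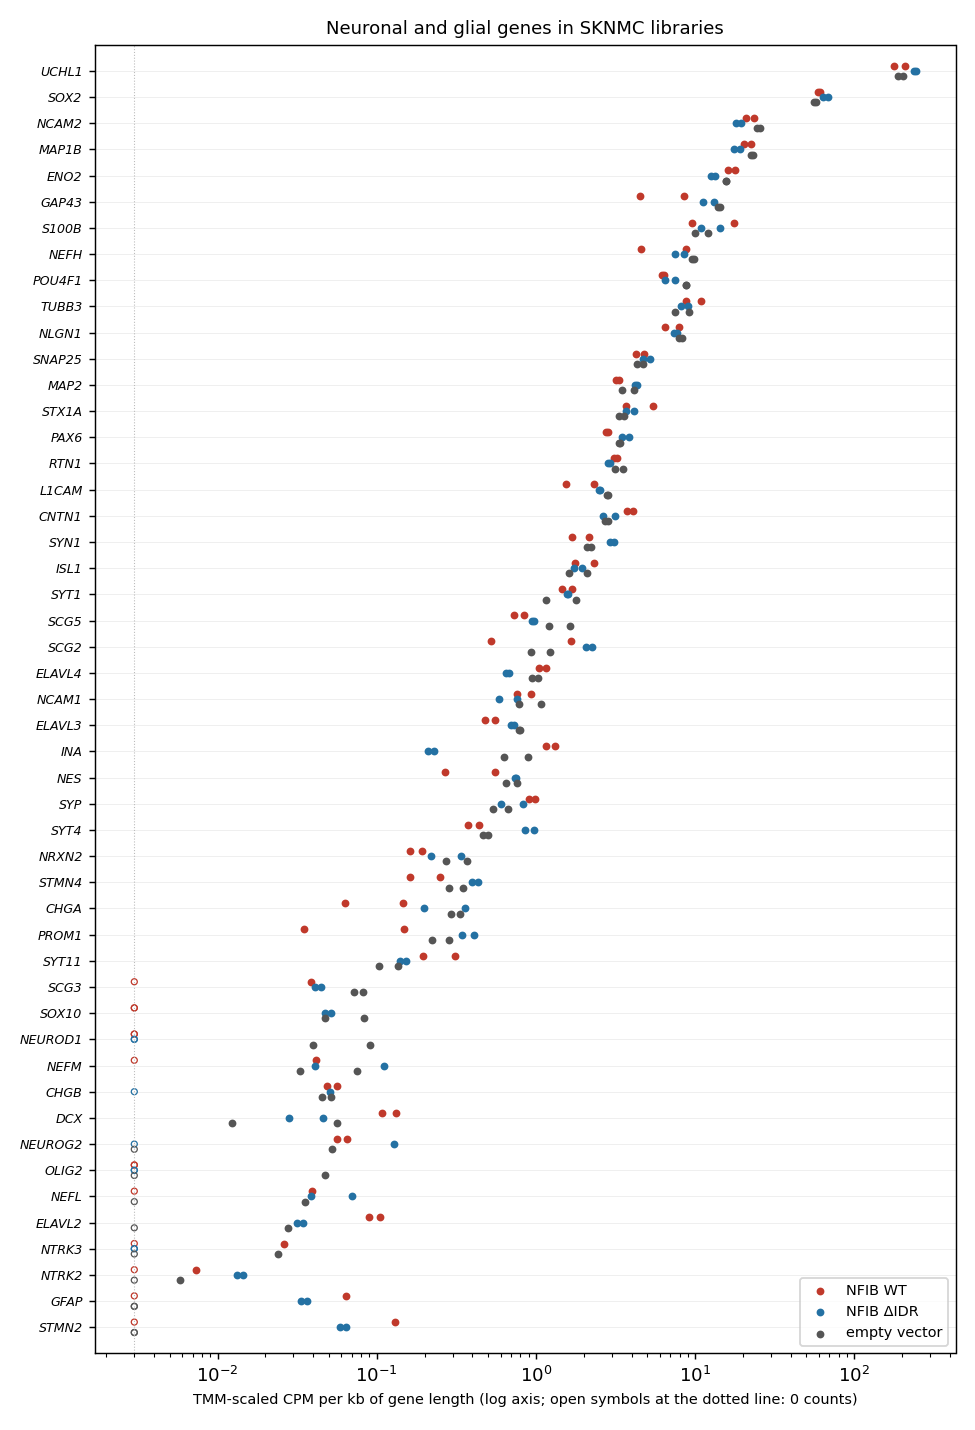
TMM-scaled CPM per kb of gene length (log axis) for the 49 neuronal and glial genes with a row, ordered by their mean with EV; each symbol is 1 library, in red for NFIB WT, blue for NFIB ΔIDR and grey for EV, and open symbols mark 0 counts. UCHL1 stands highest at 196 CPM per kb with EV, and STMN2 and GFAP had 0 counts in both EV libraries.

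Below the level of testing lay much of what defines a mature neuron or a glial cell. NEFL and NEFM, the light and medium neurofilament chains, had at most 2 and 3 counts in any library. STMN2, a tubulin-binding protein of axons, had 2 and 0 counts with NFIB WT, 1 and 1 with NFIB ΔIDR, and 0 and 0 with EV, which allows up to 0.409 and 0.358 CPM in the EV libraries. Mature neurons hold abundant RNA of these genes. CHGB and SCG3, proteins of dense-core secretory granules, had at most 1 and 2 counts, and CHGA, another granin, had 2 and 1 counts with NFIB WT, 3 and 5 with NFIB ΔIDR and 5 and 5 with EV. The neurogenic factors NEUROG2 and NEUROD1 had at most 2 counts each, as did the neurotrophin receptor NTRK2, and NTRK3 had at most 1. Of the glial genes, the Schwann cell and oligodendrocyte factor SOX10 had at most 2 counts, the oligodendrocyte factor OLIG2 had at most 1, and GFAP, the astrocyte intermediate filament, had 0 and 2 counts with NFIB WT, 1 and 1 with NFIB ΔIDR and 0 and 0 with EV. These factors were therefore at or under the limit of detection in nearly every library, with either construct.

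The other untested genes had somewhat more counts. DCX, a microtubule protein of migrating young neurons, had 7 and 10 counts with NFIB WT, 2 and 3 with NFIB ΔIDR and 4 and 1 with EV, so that the NFIB WT libraries were above the other 4. ELAVL2, an RNA-binding protein, had 3 and 3 counts with NFIB WT, 1 and 1 with NFIB ΔIDR, and 0 and 1 with EV. SYT11, a synaptotagmin, had 11 and 8 counts with NFIB WT, 6 and 5 with NFIB ΔIDR and 4 and 6 with EV. STMN4, a relative of STMN2, had 4 and 3, 7 and 7, and 5 and 7 counts in the same order of groups. These genes had no test in the fit, and their counts are given as a description.

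Against EV, no tested member of the list passed the test with either construct. With NFIB WT, 0 of 32 members were higher and 0 lower at an adjusted p under 0.05 (edgeR's quasi-likelihood test with Benjamini-Hochberg adjustment over 13501 genes), where 0.452% of all genes tested were higher and 0.163% lower. At an unadjusted p under 0.05 there were 8 members, 25% of those tested, against 13.4% of all genes. DESeq2 called GAP43, which was lower, of the 28 members it gave an adjusted p, where it called 0.149% of all genes lower. With NFIB ΔIDR, 0 of 32 members were higher and 0 lower, beside 0.296% and 0.356% of all genes, with 11 members at an unadjusted p under 0.05 against 15.2% of all genes, and DESeq2 called none. Since both comparisons use the same EV libraries, their values are given side by side and not as an overlap. The median log2 fold change of the 32 members was -0.12 with NFIB WT against EV and 0.01 with NFIB ΔIDR against EV, while over all genes it was 0.0041 and 0.0013.

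The count with NFIB ΔIDR depended on which libraries entered the fit. When NFIB ΔIDR and EV were fitted without the NFIB WT libraries, 4 of the 32 members were higher (SCG2, SOX2, UCHL1 and SYT4) and 4 lower (MAP1B, INA, POU4F1 and NCAM2), in a fit that called 6.85% of all genes higher and 7.32% lower. Leaving out NFIB WT replicate 1 gave 7 of 32 members, beside 13.2% of all genes, and leaving out replicate 2 gave 7 of 33, beside 13.3%. In both fits these were SCG2, SOX2 and UCHL1, which were higher, and MAP1B, INA, POU4F1 and NCAM2, which were lower. For NFIB WT against EV, leaving out NFIB WT replicate 1 gave 3 of 32 members, S100B higher and GAP43 and POU4F1 lower, beside 3.68% of all genes. Leaving out replicate 2 gave 7 of 33 members, 21.2% of them, beside 21.9% of all genes. These were CNTN1, which was higher, and NES, GAP43, L1CAM, POU4F1, NCAM2 and NEFH, which were lower. Where an NFIB WT library is left out, p-values of NFIB WT against another group do not include the spread between the NFIB WT libraries.

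**Figure D2:**
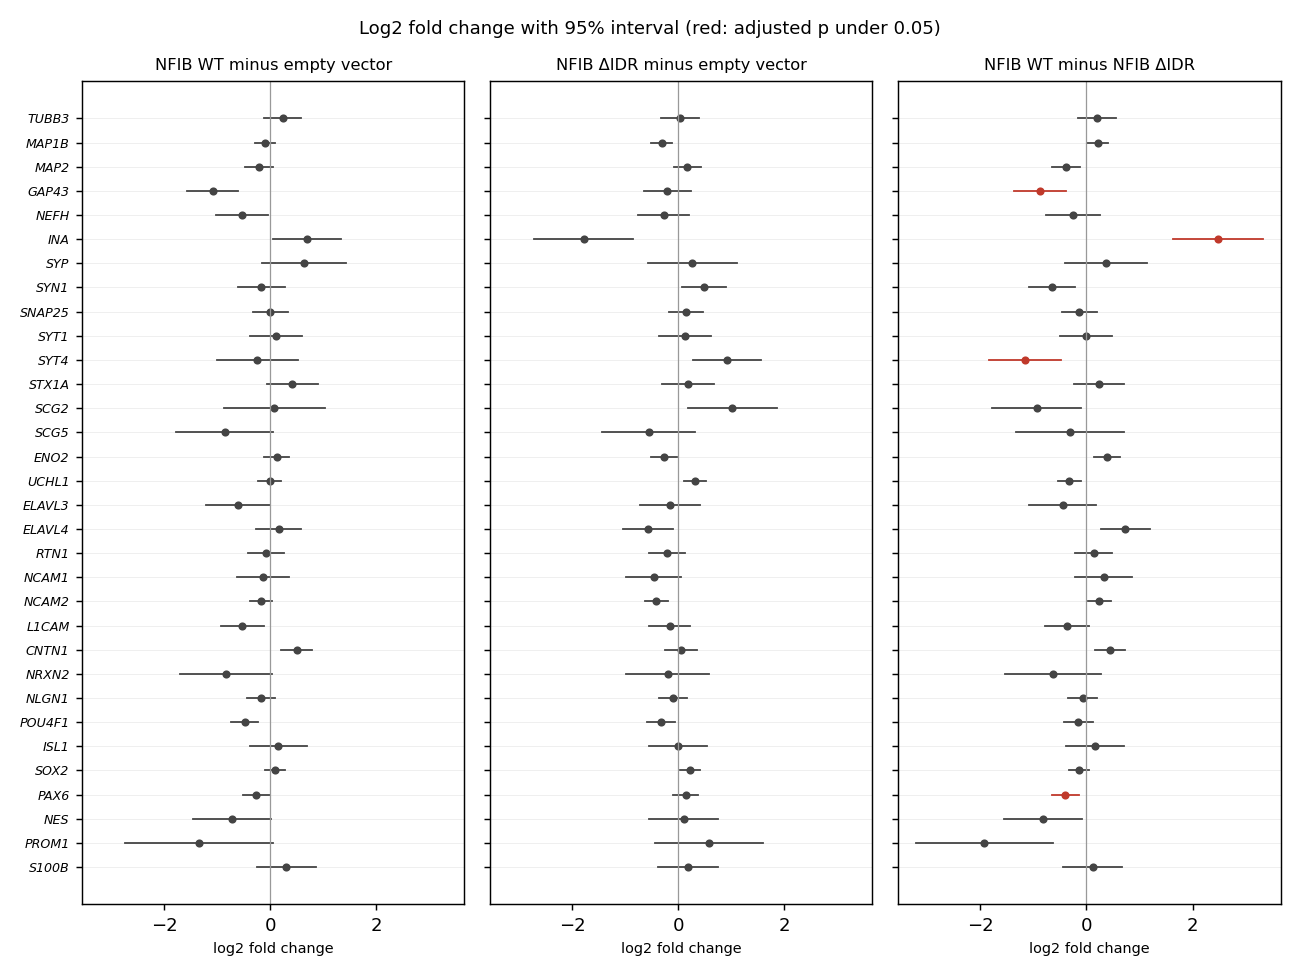
Log2 fold change (horizontal axis) with its 95% interval for the 32 tested members, grouped by role from top to bottom, in the 3 comparisons; red marks an adjusted p under 0.05. INA, GAP43, SYT4 and PAX6 passed between NFIB WT and NFIB ΔIDR, and no member passed against EV.

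Between NFIB WT and NFIB ΔIDR, 1 member was higher (INA) and 3 were lower (GAP43, SYT4 and PAX6) at an adjusted p under 0.05. That is 3.12% and 9.38% of the 32 members, beside 5.52% and 5.19% of all genes tested. With 32 members, each called gene adds 3.12 percentage points. At an unadjusted p under 0.05 there were 15 members, against 27.5% of all genes. The median log2 fold change of the members was -0.14, with 13 positive and 19 negative. Over all genes tested it was -0.00087, with 49.9% positive. Without NFIB WT replicate 1, 12 of 32 members were called, beside 17.4% of all genes, and without replicate 2, 11 of 33, beside 31.6%.

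INA, a neuronal intermediate filament protein that joins the neurofilaments of young axons, showed the largest difference. It had 25 and 33 counts (3.75 and 4.25 CPM) in NFIB WT cells, 5 and 5 counts (0.676 and 0.738 CPM) with NFIB ΔIDR, and 15 and 24 counts (2.05 and 2.87 CPM) with EV. The groups did not overlap, with NFIB WT highest and NFIB ΔIDR lowest. The RNA was 5.58-fold higher in NFIB WT cells than in NFIB ΔIDR cells (log2 fold change 2.48, SE 0.39, adjusted p = 0.00391). Against EV the log2 fold change was 0.69 (95% interval 0.06 to 1.32, adjusted p = 0.336) with NFIB WT, and with NFIB ΔIDR it was -1.79 (-2.72 to -0.86, adjusted p = 0.0883). The direct difference lost its call without NFIB ΔIDR replicate 1 (log2 fold change 2.42, adjusted p = 0.0727) or replicate 2 (2.54, adjusted p = 0.0643). In hg19, INA lies on the plus strand at chr10:105036895-105050103, and 452 bases of its exons overlap exons of NT5C2 on the opposite strand. The strand setting of the counting is unknown here. NT5C2 had 55.0 and 51.5 CPM in NFIB WT cells, 49.5 and 49.6 CPM in NFIB ΔIDR cells and 56.1 and 52.3 CPM in EV cells, with a log2 fold change of 0.10 between the constructs (adjusted p = 0.541).

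GAP43, a growth cone protein of extending axons, was lower with NFIB WT. It had 9.45 and 18.0 CPM in NFIB WT cells, 27.6 and 23.8 CPM in NFIB ΔIDR cells and 29.3 and 30.1 CPM in EV cells. Both NFIB WT libraries were below the other 4, and they also lay apart from each other. The log2 fold change between the constructs was -0.88 (SE 0.22, adjusted p = 0.0311). Against EV it was -1.09 (-1.57 to -0.61, adjusted p = 0.0570) with NFIB WT, and with NFIB ΔIDR it was -0.21 (-0.65 to 0.23, adjusted p = 0.681). The size of the change depended on the library: the log2 fold change between the constructs was -0.51 without NFIB WT replicate 1 and -1.44 without replicate 2. Against EV it was -0.72 and -1.65 in the same order. The call between the constructs was lost without either NFIB ΔIDR library or either EV library, with adjusted p from 0.0644 to 0.229, and with these 2 groups alone (0.0708). GAP43 lies on the plus strand at chr3:115342357-115440337 in hg19 and overlaps no exon of another annotated gene.

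INA and GAP43 are the members that both edgeR and DESeq2 called between the constructs, in opposite directions, and their promoters are shown for the difference in base composition between them. Both are RefSeq windows on GRCh38.p14, 250 bases before to 50 after the start, with CG pairs in capitals.
INA, chr10:103276888-103277187, plus strand: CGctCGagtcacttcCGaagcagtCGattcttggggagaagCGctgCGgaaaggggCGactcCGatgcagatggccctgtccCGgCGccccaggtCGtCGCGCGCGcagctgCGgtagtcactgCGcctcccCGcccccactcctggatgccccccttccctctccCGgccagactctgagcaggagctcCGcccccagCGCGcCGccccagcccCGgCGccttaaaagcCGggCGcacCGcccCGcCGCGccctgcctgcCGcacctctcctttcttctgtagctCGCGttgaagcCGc
GAP43, chr3:115623260-115623559, plus strand: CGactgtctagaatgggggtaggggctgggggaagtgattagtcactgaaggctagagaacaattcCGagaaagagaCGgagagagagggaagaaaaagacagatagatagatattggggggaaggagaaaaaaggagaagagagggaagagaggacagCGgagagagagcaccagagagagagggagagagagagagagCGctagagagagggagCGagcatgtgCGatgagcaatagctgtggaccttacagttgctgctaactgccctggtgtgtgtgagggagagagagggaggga

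The INA promoter holds 35 CG pairs and is 71.3% G and C. The GAP43 promoter holds 7 CG pairs at 52.7% and runs through long stretches of A and G. Over the 35116 windows of the table the medians were 14 CG pairs and 58.7%. Whether base composition goes with the direction of the change was not tested. The NFI core TTGGCA (searched on both strands) was in neither window, nor was the paired NFI site, TTGGC and GCCAA with a gap of 5 bases. The core was in 12.5% of all windows and the paired site in 0.0285%. An absent match says only that these letters are not in this window.

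SYT4, a synaptotagmin of neuronal vesicles, differed in the opposite direction from INA. It had 12 and 12 counts (1.80 and 1.55 CPM) in NFIB WT cells, 26 and 27 counts (3.52 and 3.99 CPM) with NFIB ΔIDR, and 15 and 16 counts (2.05 and 1.91 CPM) with EV. The NFIB ΔIDR libraries were above all others, and those of NFIB WT were just below EV. The log2 fold change between the constructs was -1.16 (SE 0.31, adjusted p = 0.0375). Against EV it was -0.25 (-1.01 to 0.52, adjusted p = 0.809) with NFIB WT, and with NFIB ΔIDR it was 0.92 (0.27 to 1.56, adjusted p = 0.177). Without EV replicate 1 or 2, NFIB ΔIDR replicate 1 or 2, or NFIB WT replicate 2, the call was lost, with adjusted p from 0.0741 to 0.237, as it was with these 2 groups alone (0.0676), and DESeq2 gave 0.309.

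PAX6, a transcription factor of neural progenitors and the eye, had the smallest of the called changes. It had 26.1 and 26.8 CPM in NFIB WT cells, 36.7 and 33.1 CPM in NFIB ΔIDR cells and 31.7 and 31.9 CPM in EV cells. The groups did not overlap, and EV lay between the constructs. The log2 fold change between the constructs was -0.40 (SE 0.11, adjusted p = 0.0480), and against EV it was -0.26 (-0.52 to -0.01, adjusted p = 0.349) with NFIB WT, and with NFIB ΔIDR it was 0.13 (-0.11 to 0.38, adjusted p = 0.624). DESeq2 did not call it (adjusted p = 0.274). The call was lost without either NFIB ΔIDR library or either EV library, with adjusted p from 0.108 to 0.306. It was also lost without a filter on low counts (0.0557), with a filter of 1 CPM (0.0501) and with these 2 groups alone (0.105), so that PAX6 was called in 6 of 14 alternatives. Exons of PAX6 share 5241 bases with exons of ELP4 on the opposite strand. ELP4 had 337 and 339 counts with NFIB WT, 296 and 242 with NFIB ΔIDR and 262 and 394 with EV, with a log2 fold change of 0.31 between the constructs (adjusted p = 0.194).

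**Figure D3:**
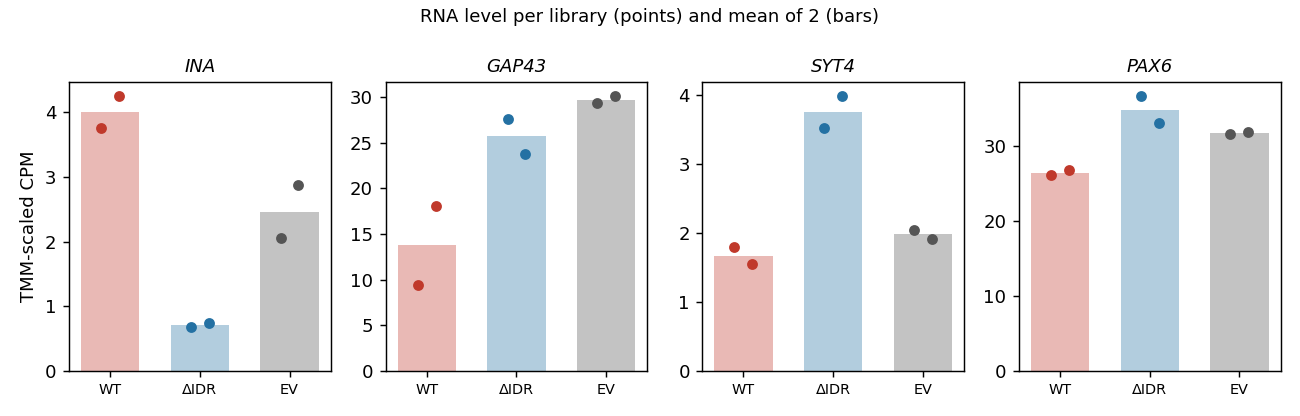
TMM-scaled CPM (vertical axis, from 0) of the 4 members called between NFIB WT and NFIB ΔIDR; points are libraries and bars the mean of 2, with NFIB WT in red, NFIB ΔIDR in blue and EV in grey. For INA the NFIB WT libraries had 3.75 and 4.25 CPM and the NFIB ΔIDR libraries 0.676 and 0.738 CPM, whereas for SYT4 and PAX6 the NFIB ΔIDR libraries were the highest.

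A second rule, a fold of 1.5 with an unadjusted p under 0.05, is the kind of threshold the study's methods name. With NFIB WT against EV it took 1 member higher (INA) and 2 lower (GAP43 and ELAVL3), beside 2.13% and 1.75% of all genes. With NFIB ΔIDR against EV it took 2 higher (SYT4 and SCG2) and 1 lower (INA), beside 3.09% and 1.68%. With NFIB WT against NFIB ΔIDR it took 2 higher (INA and ELAVL4) and 6 lower (GAP43, SYN1, SYT4, SCG2, NES and PROM1), beside 4.3% and 5.69%.

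Of the other cytoskeletal and neurofilament genes, none was called. MAP1B had 250 and 275 CPM in NFIB WT cells, 237 and 216 CPM in NFIB ΔIDR cells and 278 and 286 CPM in EV cells. The NFIB ΔIDR libraries were the lowest, at a log2 fold change of -0.32 against EV (-0.51 to -0.12, adjusted p = 0.129). NEFH, the heavy neurofilament chain, was the neurofilament gene with the highest level and had 16.9 and 32.7 CPM in NFIB WT cells, 28.0 and 31.9 CPM in NFIB ΔIDR cells and 36.7 and 35.8 CPM in EV cells. Its NFIB WT libraries lay on both sides of NFIB ΔIDR, and the log2 fold change between the constructs, -0.25, became 0.13 without NFIB WT replicate 1. TUBB3, a neuronal beta tubulin, had 117 and 169, 121 and 123, and 110 and 155 counts with NFIB WT, NFIB ΔIDR and EV, and its groups overlapped. MAP2, the microtubule-associated protein of dendrites, had 32.1 and 33.5 CPM in NFIB WT cells, 43.3 and 42.2 CPM in NFIB ΔIDR cells and 41.5 and 34.9 CPM in EV cells. The log2 fold change of MAP2 between the constructs was -0.38 (-0.64 to -0.12, adjusted p = 0.0633).

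MAP2 is among the 3 members, with ELAVL4 and RTN1, in which a promoter window held the NFI core TTGGCA. They hold it in 4 of the 70 windows of the 34 members with an entry. The stretch around the core in MAP2, 75 bases before the start, is shown with the match, which is on the opposite strand, in capitals (RefSeq, GRCh38.p14).
MAP2, chr2:209661386-209661461, plus strand: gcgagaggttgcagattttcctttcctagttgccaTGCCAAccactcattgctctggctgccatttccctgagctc

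None of these 3 genes was called. ELAVL4, an RNA-binding protein of neurons, had 6.90 and 7.60 CPM in NFIB WT cells, 4.46 and 4.28 CPM in NFIB ΔIDR cells and 6.82 and 6.21 CPM in EV cells, and NFIB ΔIDR was lowest. Its log2 fold change between the constructs was 0.73 (0.26 to 1.20, adjusted p = 0.0506). RTN1, a reticulon of the endoplasmic reticulum of neurons, had 11.8 and 11.5, 10.7 and 10.5, and 11.6 and 13.0 CPM with NFIB WT, NFIB ΔIDR and EV. The intervals of RTN1 spanned 0 in all 3 comparisons.

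The synaptic vesicle and release genes were expressed at low to moderate levels. SNAP25, a SNARE protein of vesicle fusion, had 14.7 and 13.1 CPM in NFIB WT cells, 16.0 and 14.5 CPM in NFIB ΔIDR cells and 13.2 and 14.5 CPM in EV cells, and its groups overlapped. The SNARE protein STX1A had 7.80 and 11.6, 7.85 and 8.86, and 7.64 and 7.05 CPM with NFIB WT, NFIB ΔIDR and EV. SYT1, the calcium sensor of fast release, had 7.80 and 9.02, 8.52 and 8.41, and 9.55 and 6.21 CPM in that order of groups. The EV libraries alone span the SYT1 values of both constructs. SYP, a vesicle membrane protein, had 16 and 17 counts with NFIB WT, 15 and 10 with NFIB ΔIDR and 12 and 11 with EV, and its intervals spanned 0 in each comparison. SYN1, a synapsin that tethers vesicles, had 6.90 and 5.41 CPM in NFIB WT cells, 9.34 and 9.89 CPM in NFIB ΔIDR cells and 7.10 and 6.69 CPM in EV cells. The NFIB ΔIDR libraries were the highest for SYN1, at a log2 fold change of -0.65 between the constructs (-1.08 to -0.22, adjusted p = 0.0579).

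SYN1 is a classical target of REST. Its promoter window held TTCAGCACC, a core of the REST site, 233 bases before the start. The core, searched on both strands, was in 0.376% of all windows and in 2 member windows, those of SYN1 and SCG3. The stretch with the match in capitals is RefSeq sequence on GRCh38.p14.
SYN1, chrX:47620047-47620107, minus strand: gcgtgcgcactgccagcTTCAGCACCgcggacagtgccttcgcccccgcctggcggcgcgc

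REST RNA had 277 and 256 CPM in NFIB WT cells, 276 and 262 CPM in NFIB ΔIDR cells and 283 and 281 CPM in EV cells. Its log2 fold change was -0.08 (-0.26 to 0.10, adjusted p = 0.692) with NFIB WT against EV, -0.07 (-0.25 to 0.12, adjusted p = 0.772) with NFIB ΔIDR against EV, and -0.02 between the constructs (adjusted p = 0.925). No difference in REST RNA was detected. Protein was not measured.

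Among the secretory genes, SCG2, a granin precursor of neuropeptides, had 1.35 and 4.25 CPM in NFIB WT cells, 5.82 and 5.31 CPM in NFIB ΔIDR cells and 3.14 and 2.39 CPM in EV cells. NFIB ΔIDR was highest, but the 2 NFIB WT libraries lay on both sides of EV. The log2 fold change of SCG2 with NFIB ΔIDR against EV was 1.02 (0.18 to 1.85, adjusted p = 0.237). SCG5, a chaperone of prohormone convertase, had 7 and 7, 9 and 8, and 11 and 17 counts with NFIB WT, NFIB ΔIDR and EV. In CPM its EV libraries were the highest, and its intervals spanned 0.

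The metabolic and RNA-binding markers included some of the most abundant members. UCHL1 had 200 and 236 CPM in NFIB WT cells, 269 and 277 CPM in NFIB ΔIDR cells and 211 and 228 CPM in EV cells, and NFIB ΔIDR was highest. Its log2 fold change was 0.31 with NFIB ΔIDR against EV (0.10 to 0.52, adjusted p = 0.166) and -0.32 between the constructs (-0.54 to -0.11, adjusted p = 0.0591). ENO2, the neuron-specific enolase, had 38.8 and 43.4 CPM in NFIB WT cells, 32.6 and 30.6 CPM in NFIB ΔIDR cells and 38.2 and 37.8 CPM in EV cells. NFIB ΔIDR was lowest for ENO2, and the log2 fold change between the constructs was 0.38 (0.14 to 0.63, adjusted p = 0.0528). ELAVL3, a neuronal RNA-binding protein, had 2.25 and 2.58, 3.25 and 3.40, and 3.69 and 3.70 CPM with NFIB WT, NFIB ΔIDR and EV. NFIB WT was lowest for ELAVL3, at a log2 fold change against EV of -0.61 (-1.21 to -0.0027, adjusted p = 0.372).

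All 6 adhesion genes were tested and none was called. NCAM2 had 104 and 117 CPM in NFIB WT cells, 90.0 and 98.0 CPM in NFIB ΔIDR cells and 123 and 128 CPM in EV cells, and EV was highest. Its log2 fold change with NFIB ΔIDR against EV was -0.42 (-0.63 to -0.20, adjusted p = 0.0883). CNTN1, a contactin of axons, had 30.0 and 27.3 CPM in NFIB WT cells, 22.9 and 19.2 CPM in NFIB ΔIDR cells and 19.9 and 20.7 CPM in EV cells. NFIB WT was highest for CNTN1, with a log2 fold change against EV of 0.49 (0.21 to 0.78, adjusted p = 0.141). L1CAM, which guides axons, had 8.10 and 12.1, 13.1 and 13.3, and 14.7 and 14.8 CPM with NFIB WT, NFIB ΔIDR and EV, and NFIB WT was lowest. NCAM1 had 6.45 and 7.99, 6.49 and 5.02, and 6.69 and 9.20 CPM in that order of groups. The neurexin NRXN2 had 1.20 and 1.42, 1.62 and 2.51, and 2.73 and 2.03 CPM, and the neuroligin NLGN1, a partner of neurexins, had 39.3 and 31.9, 36.7 and 37.9, and 40.9 and 39.4 CPM. For NCAM1, NRXN2 and NLGN1 the intervals spanned 0 in all 3 comparisons.

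The 2 tested transcription factors of sensory and motor neurons were expressed in all libraries. POU4F1, a factor of sensory neurons, had 24.3 and 23.6 CPM in NFIB WT cells, 28.5 and 24.7 CPM in NFIB ΔIDR cells and 33.6 and 33.5 CPM in EV cells. EV was highest, and the log2 fold change against EV was -0.49 (-0.75 to -0.22, adjusted p = 0.105) with NFIB WT, and with NFIB ΔIDR it was -0.33 (-0.59 to -0.07, adjusted p = 0.218). ISL1, a factor of motor neurons, had 4.80 and 6.31, 5.28 and 4.72, and 5.73 and 4.42 CPM with NFIB WT, NFIB ΔIDR and EV, and its groups overlapped.

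Of the progenitor genes, SOX2 had 150 and 153 CPM in NFIB WT cells, 173 and 161 CPM in NFIB ΔIDR cells and 145 and 141 CPM in EV cells. NFIB ΔIDR was highest for SOX2, at a log2 fold change against EV of 0.22 (0.03 to 0.41, adjusted p = 0.256). NES, the intermediate filament nestin, had 10 and 24 counts with NFIB WT, 31 and 28 with NFIB ΔIDR and 31 and 30 with EV. PROM1, a membrane protein of stem cells, had 1 and 5 counts with NFIB WT, 11 and 12 with NFIB ΔIDR, and 9 and 8 with EV. Both genes were lowest with NFIB WT, and the log2 fold changes between the constructs were -0.82 (-1.56 to -0.09, adjusted p = 0.142) for NES and -1.93 (-3.22 to -0.63, adjusted p = 0.0615) for PROM1. Both depended on which NFIB WT library was kept: NES had -0.42 without NFIB WT replicate 1 and -1.46 without replicate 2, and PROM1 had -1.31 and -3.29. Against EV, NES had -0.72 with NFIB WT (adjusted p = 0.378), and -1.36 without NFIB WT replicate 2.

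S100B, a calcium-binding protein of astrocytes and Schwann cells, was the only glial member tested. It had 10.8 and 19.8 CPM in NFIB WT cells, 12.4 and 16.2 CPM in NFIB ΔIDR cells and 11.3 and 13.7 CPM in EV cells. The NFIB WT libraries spanned all the others. The log2 fold change of NFIB WT against EV, 0.30 (-0.25 to 0.86, adjusted p = 0.622), became -0.22 without NFIB WT replicate 2 and 0.65 without replicate 1. The other glial members, GFAP, SOX10 and OLIG2, had at most 2 counts in any library. A fall in them, or a small rise, was therefore not detectable at this depth. A rise to well above these counts would have been visible, and none was seen with either construct.

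The neural genes varied more within the NFIB WT pair than within the others. The SD of the log2 difference between libraries was 0.44 over the 32 members with NFIB WT, against 0.20 with NFIB ΔIDR and 0.24 with EV. The median absolute log2 difference with NFIB WT was 0.194 over the members and 0.208 over all genes tested, so the typical member varied no more than other genes. With NFIB WT, 23 of 32 members were higher in replicate 2, beside 50.3% of all genes, and 6 members were over 1.5-fold apart (18.8%), while 10.2% of all genes were. These 6 genes were SCG2, PROM1, NEFH, NES, GAP43 and S100B, and each was higher in replicate 2. With NFIB ΔIDR there were 0 such members, beside 5.26% of all genes, and with EV there was 1, SYT1, beside 5.61%.

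**Figure D4:**
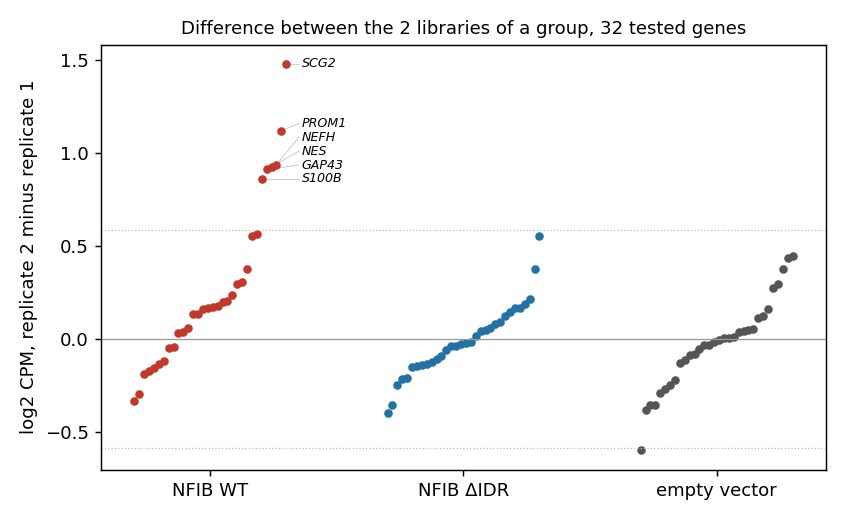
Log2 CPM of replicate 2 minus replicate 1 (vertical axis) for the 32 tested members, sorted within NFIB WT, NFIB ΔIDR and EV; dotted lines mark a 1.5-fold difference. With NFIB WT 6 members lie above the upper line, and with NFIB ΔIDR none lies outside the lines.

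Other neural genes came from lists that share no member with the 50. These lists too were chosen with earlier results of these data known, so their shares are a description. Of 240 listed, 136 were tested, and these include the 15 tested genes of the REST repressor complex, which acts on neuronal genes. With NFIB WT against EV, 3 rose (TNC, PCSK2 and SCN1A) and 1 fell (RIMS2), 2.94% in all, where 0.452% of all genes were higher and 0.163% lower. SCN1A, a neuronal sodium channel, rose by a log2 fold change of 1.40 (adjusted p = 0.0177), TNC, a matrix protein of radial glia and fibroblasts, by 0.98 (adjusted p = 0.0129), and PCSK2, a prohormone convertase, by 0.75 (adjusted p = 0.0202). RIMS2, a protein of the presynaptic active zone, had a log2 fold change of -0.65 (adjusted p = 0.0411). With NFIB ΔIDR against EV, 1 rose (PCLO, another active zone protein, 0.72, adjusted p = 0.0380) and 2 fell (TUBA1A, an alpha tubulin, -0.58, adjusted p = 0.0489, and PAM, which amidates neuropeptides, -0.55, adjusted p = 0.0279), 2.21% in all, where 0.296% of all genes were higher and 0.356% lower.

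Between the constructs, 18 of the 136 genes of these lists were higher with NFIB WT and 11 lower, 21.3% in all. Over all genes tested, 5.52% were higher and 5.19% lower. From the list named for the neuronal cytoskeleton, TUBA1A (log2 fold change 0.89, adjusted p = 0.00138), DPYSL3 (0.58) and GPM6B (0.54) were higher, and STMN1 (-0.43) was lower. Among the active zone and vesicle genes RIMS2 (-0.80), PCLO (-0.88) and SV2B (-1.34) were lower, while SV2C (0.68) was higher. Peptide-processing CPE (0.86), PAM (0.51) and PCSK2 (0.56) were higher, as were the radial glial genes TNC (1.19), VIM (0.53) and GPC4 (0.78), with CLU (-0.70) lower. VIM and TNC are also expressed by fibroblasts and mesenchymal cells, and 5 of the 9 tested fibroblast markers were higher and 1 lower in the same comparison, beside those shares of all genes. In it 2 of the 4 tested epithelial markers (ESRP1 and KRT8) and 1 of the 4 tested melanocyte markers (PMEL) were lower, and 2 of the 10 Ewing sarcoma markers were higher and 1 lower. Of the ion channels SCN1A (1.41) was higher and SCN2A (-0.79), CACNA1C (-1.18) and CACNA1A (-1.50) were lower. Among oligodendrocyte and Schwann genes PDGFRA (-1.95) and EGR2 (-0.91) were lower and UGT8 (0.63) higher. The neurotrophic receptors GFRA2 (0.77) and LIFR (0.59) and the REST cofactors RCOR1 (0.60) and CTDSP2 (0.63) were higher, and GATA2 (-0.71), a transcription factor, was lower.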

How the data were processed

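RNA-seq was measured in SKNMC cells with NFIB WT, NFIB ΔIDR or EV, 2 libraries each. The authors converted reads with CASAVA 2.19, aligned them to hg19 with STAR 2.4.0h and counted fragments per RefSeq gene with featureCounts, per the labels and methods, and deposited raw counts without normalization. The sources used here do not give the strand setting, what was done with multi-mapping reads, or whether molecular identifiers were used. The gene length used for CPM per kb is a deposited column.

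Low counts were removed by filterByExpr (at least 10 counts, 15 in total). TMM factors were then computed, and edgeR 4.0.16 (limma 3.58.1, R 4.3.3) gave quasi-likelihood tests from a fit of all 6 libraries with a mean per group, and Benjamini-Hochberg adjustment over 13501 genes. SE is the log2 fold change over the root of F, and intervals are 95%. CPM use the library sizes over tested genes. Floors of 3 counts cover counting error only, whereas intervals, which rest on the same F as the p-values, also include the estimated spread between libraries. Log2 CPM for pair differences used a prior count of 2. The steps were tested on simulated counts with the same spread in every group and with changes only in genes of higher counts. That test does not cover genes of low counts or a group whose libraries vary more. DESeq2 1.42.0 was an alternative, with other scalings, filters, fits of 2 groups, a replicate block and leaving out each library. The main tool is edgeR, whereas the study's methods name DESeq2 with a fold of 1.5.

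Members and lists were chosen with earlier results of these data known. All listed members are named. Members called in any comparison are given with each library's value, log2 fold change, SE and adjusted p. Other members at 1 CPM are given with their levels and the rest by counts. Of the other neural lists, up to 4 called genes a list with the smallest p are named. NFIB checks the labels of the constructs against EV. Positions and exon overlaps come from GENCODE lifted to hg19, and promoter sequences from RefSeq on GRCh38.p14, which held 34 of the 50 members. Fits of 2 groups and DESeq2 calls beside the main counts were counted over the genes each gave an adjusted p.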

Additional observations from a re-analysis of the deposited data

Results flagged for a closer look

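Effects of both constructs on the same gene, each against the same EV libraries, differed from each other, tested as NFIB WT against NFIB ΔIDR, for 4 of the 32 neural genes tested. INA was higher with NFIB WT (log2 difference 2.48), and GAP43 (-0.88), PAX6 (-0.40) and SYT4 (-1.16) were lower. For INA and PAX6 the fitted effects against EV had opposite signs, as they had for SYT4, whereas both were negative for GAP43. None of these 4 genes passed the test against EV with either construct.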

How the results depend on the processing

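Counts of neural genes called moved with several settings. For NFIB WT against EV, 0 became 1 with DESeq2 (GAP43), 4 without a filter on low counts, 1 with a replicate block (GAP43), 3 with a fold of 1.5 and unadjusted p under 0.05, and 0 to 7 when each library was left out. For NFIB ΔIDR against EV, 0 became 4 without a filter, 8 with these 2 groups alone, 1 with the block (NCAM2), 3 with the fold rule, and 0 to 7 over the left-out libraries. For NFIB WT against NFIB ΔIDR, 4 became 2 with DESeq2 (INA and GAP43), 10 without a filter, 1 with these 2 groups alone (INA), 10 with the block, 8 with the fold rule, and 0 to 12 over the left-out libraries: 0 without NFIB ΔIDR replicate 1 or 2, 1 without EV replicate 1 or 2, 12 without NFIB WT replicate 1 and 11 without replicate 2. Fits with 1 library in a group assume that it varies like the others. The cause of the other moves was not tested.

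Over all genes, NFIB WT against EV gave 83 calls, and 541 without a filter, 13 with 2 groups, 188 with the replicate block, 524 with the fold rule and 9 to 3051 over the left-out libraries. NFIB ΔIDR against EV gave 88, and 550, 1883, 241 and 644 in the same settings and 4 to 1853 over the left-out libraries. NFIB WT against NFIB ΔIDR gave 1446, and 726 with DESeq2, 2280 without a filter, 680 with 2 groups and 109 to 4405 over the left-out libraries. The members' median log2 fold change moved to 0.0357 (NFIB ΔIDR against EV) and -0.15 (between the constructs) with library totals alone, and over the left-out libraries it ranged from -0.134 to 0.0215 and from -0.174 to -0.0745. Over the left-out libraries the log2 fold change ranged from -0.22 to 0.65 for S100B with NFIB WT against EV, from -0.40 to 0.48 for S100B between the constructs and from -0.81 to 0.13 for NEFH between the constructs. The sign turned without NFIB WT replicate 2 for S100B against EV (-0.22) and between the constructs (-0.40), without NFIB ΔIDR replicate 1 for S100B between the constructs (-0.07), and without NFIB WT replicate 1 for NEFH between the constructs (0.13). INA was called between the constructs in 12 of 14 alternatives. Deviations of same-numbered libraries correlated over genes at 0.0539 (NFIB WT and NFIB ΔIDR), 0.153 (NFIB WT and EV) and 0.0156 (NFIB ΔIDR and EV). With 2 libraries a group, these values cannot tell whether the replicate numbers pair the samples, and the main fit did not pair them. Scaling by library totals changed the share of higher calls with NFIB ΔIDR against EV to 55.4%, from 45.5%. Without the filter on low counts all 49 members were tested, and none of the 17 that the filter removed was called.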
